A study of Mus musculus with 12 samples.

Results

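The 9 genes described here govern how triglyceride carried by lipoproteins is broken down at the vessel wall and how the lipid then enters cells. They are Lpl, Angptl4, Gpihbp1, Vldlr, Cd36, Fabp4, Fabp3, Mfsd2a and Apom. Each was taken as the probe set whose platform annotation gives that gene as its single symbol, and where a gene had several such probe sets the brightest over all arrays was used. All 9 were found among 19938 genes measured in whole mouse kidney.

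Lipoprotein lipase sits on the luminal face of capillaries, held there by GPIHBP1, and frees fatty acids from circulating triglyceride. ANGPTL4 switches the enzyme off, and CD36, the fatty acid binding proteins and the VLDL receptor take part in bringing the released fatty acids or the particles themselves into cells. Several of these genes are known PPAR targets in fat, muscle, liver or endothelium. In the kidney the proximal tubule runs largely on fatty acids and is also a site where APOM is made.

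PpargΔ/Δ mice, which the series title calls null for PPARγ, were set against controls of the same mixed C57BL6/SV129 background. AZIP mice, on the FVB background, were set against FVB controls. AZIP mice carry a transgene for a dominant-negative protein that blocks the formation of fat tissue, and in the line as first described its expression is driven by the Fabp4 promoter. All animals were 3 weeks old, and neither the way Pparg was deleted nor the genotype of the mixed controls beyond the word control is given in the sources used here. Each of the 4 groups had 3 arrays and each array held RNA pooled from 3 mice, so n counts pools, and the spread between pools is smaller than that between single mice. The 2 mutant comparisons share no array, but each gene's variance was estimated over all 12 arrays.

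Levels are log2 values from the robust multi-array average (RMA), and differences are log2, mutant minus control, with the SE and adjusted p from limma and n = 3 arrays per group. The median of a whole array ranged from 7.17 to 7.21. The mean of 12 proximal tubule markers lay between 12.01 and 12.45 on every array, and the thick limb marker Umod between 13.02 and 13.15. The Pparg probe set read 8.00 to 8.19 in PpargΔ/Δ kidneys and 7.90 to 8.02 in mixed controls (difference 0.11 ± 0.058, limma adjusted p = 0.339), and since the deleted part of the gene is not given this does not check the genotype. In AZIP kidneys Pparg read 8.16 to 8.23, against 7.94 to 8.00 in FVB controls (difference 0.22 ± 0.058, limma adjusted p = 0.0736). In whole kidney, fewer cells of a type and less RNA per cell cannot be told apart.

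In PpargΔ/Δ kidneys 1 of the 9 genes fell and 0 rose against mixed controls by limma, with 0 higher and 2 lower at an unadjusted p under 0.05. Among all genes 5.29% were called, 2.67% higher and 2.62% lower. At least 3940 of the 19938 genes had an unadjusted limma p under 0.05 in the PpargΔ/Δ comparison. In AZIP kidneys 2 of the 9 fell and 0 rose against FVB controls by limma, with 2 higher and 3 lower at an unadjusted p under 0.05, where 2.43% of all genes were called, 1.3% higher and 1.13% lower. In the AZIP comparison at least 3083 of the 19938 genes had an unadjusted limma p under 0.05. The genes that fell past the adjusted threshold were Angptl4 in PpargΔ/Δ kidneys and Mfsd2a and Apom in AZIP kidneys. The median difference over the 9 genes was -0.235 for PpargΔ/Δ and -0.104 for AZIP, beside -0.009 and 0.003 over all genes. In each line 4 of the 9 were above 0 and 5 below, so the set did not move as a whole. The 9 were chosen with earlier results of these data known. The enzyme Lpl and its anchor Gpihbp1 did not pass the threshold in either line.

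**Figure D1:**
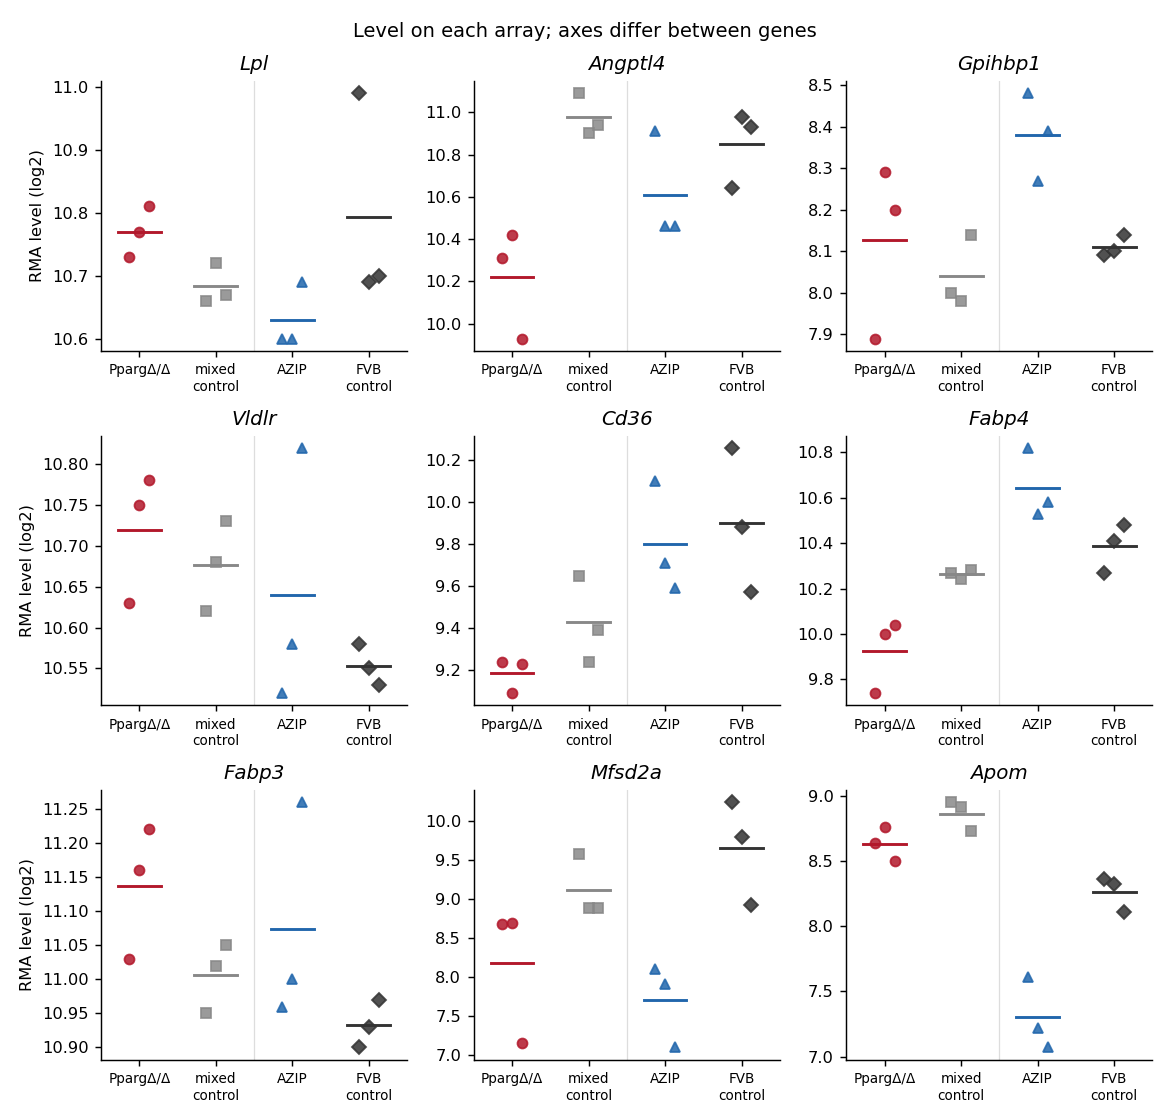
RMA level (log2, vertical axis) of the 9 genes on each of the 12 arrays, in 4 groups of 3 pools, with a bar at each group mean. Angptl4 in the PpargΔ/Δ group reaches at most 10.42, below the lowest mixed control at 10.90, and Apom and Mfsd2a in the AZIP group lie below all FVB controls.

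Lpl, which encodes the enzyme itself (chromosome 8, 68880555 to 68906932, GRCm38.p6), read 10.73, 10.77 and 10.81 in PpargΔ/Δ kidneys and 10.66, 10.72 and 10.67 in mixed controls. The groups did not overlap, yet the difference was 0.084 ± 0.072 (limma adjusted p = 0.569), with a 95% interval of -0.073 to 0.24. In AZIP kidneys Lpl read 10.60, 10.60 and 10.69, against 10.99, 10.69 and 10.70 in FVB controls, a difference of -0.16 ± 0.072 (limma adjusted p = 0.291). FVB control 1 stood above the other FVB arrays, and without it the AZIP difference was -0.064. Over the 12 arrays Lpl spanned only 0.39.

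Gpihbp1, the protein that carries lipoprotein lipase across the capillary wall and anchors it there, lies on chromosome 15 (75596630 to 75598213, GRCm38.p6). It read 8.48, 8.27 and 8.39 in AZIP kidneys, above all of the FVB controls at 8.09, 8.10 and 8.14. The AZIP difference of 0.27 ± 0.092 missed the threshold (limma adjusted p = 0.158, 95% interval 0.067 to 0.47). PpargΔ/Δ kidneys read 7.89, 8.29 and 8.20, on both sides of the mixed controls at 8.00, 7.98 and 8.14 (difference 0.089 ± 0.092, limma adjusted p = 0.648). That value rested on single arrays, since it was 0.21 without PpargΔ/Δ 1 and 0.0089 without PpargΔ/Δ 2. The mean of 12 endothelial markers spanned 10.07 to 10.22 in PpargΔ/Δ kidneys and 10.06 to 10.19 in mixed controls, and 10.15 to 10.27 in AZIP kidneys and 10.16 to 10.20 in FVB controls. By limma 0 of the 12 passed in either comparison.

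Angptl4, the secreted inhibitor of the lipase and a PPAR target in many tissues, lies on chromosome 17 (33774900 to 33781575, GRCm38.p6). Its levels were 10.31, 10.42 and 9.93 in PpargΔ/Δ kidneys, against 11.09, 10.90 and 10.94 in mixed controls. No PpargΔ/Δ array reached the lowest control, and the difference was -0.76 ± 0.15, a fold of 0.593 with a 95% interval of 0.475 to 0.739 (limma adjusted p = 0.0152). Without mixed control 1, the highest array, the difference was -0.70 and missed the threshold (limma adjusted p = 0.0672). The mean of 12 proximal tubule markers was 12.01 to 12.16 in PpargΔ/Δ kidneys and 12.20 to 12.33 in mixed controls, with 9 of the 12 below 0 in the difference, a median of -0.132 and 0 past the threshold by limma. Their part in the Angptl4 difference was not tested.

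In the AZIP line the same inhibitor did not pass the threshold. Angptl4 read 10.91, 10.46 and 10.46 in AZIP kidneys and 10.64, 10.98 and 10.93 in FVB controls, so the groups overlapped through AZIP 1 and FVB control 1. The AZIP difference was -0.24 ± 0.15 (limma adjusted p = 0.471), with a 95% interval of -0.56 to 0.082. Left-out arrays moved it from -0.39 without AZIP 1 to -0.16 without AZIP 2 or AZIP 3. The PpargΔ/Δ effect minus the AZIP effect was -0.52 ± 0.21 (limma adjusted p = 0.835, unadjusted p = 0.0279), so a difference between the lines was not shown. PpargΔ/Δ arrays were the lowest of the 4 groups and did not overlap with the next group, AZIP, while mixed controls, FVB controls and AZIP overlapped along the order of their means.

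**Figure D2:**
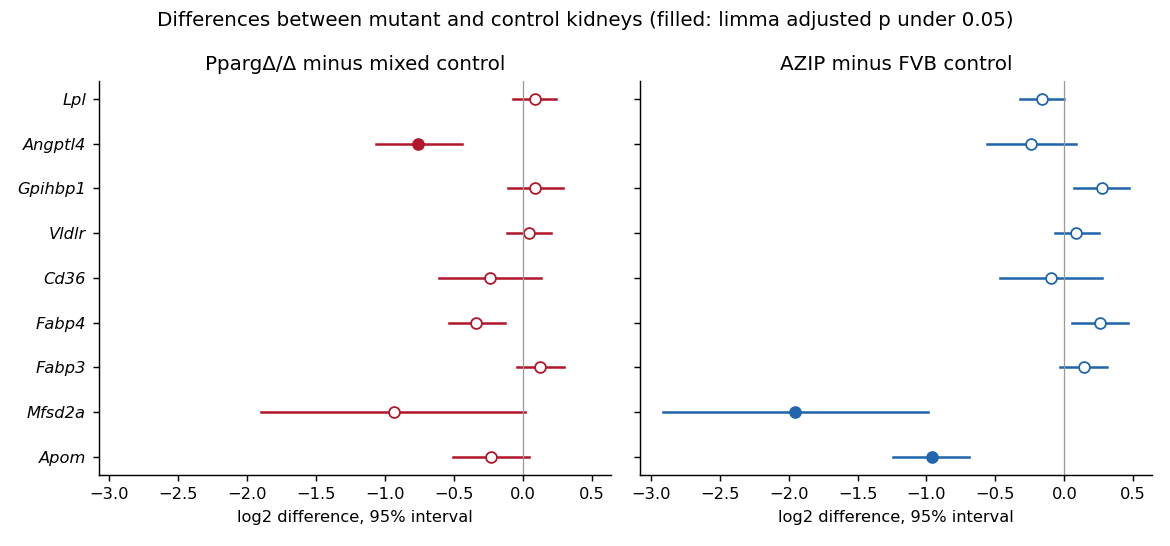
Log2 difference with its 95% limma interval (horizontal axis) for the 9 genes, PpargΔ/Δ minus mixed control at left and AZIP minus FVB control at right, filled where the limma adjusted p was under 0.05. The filled points are Angptl4 at -0.76 in PpargΔ/Δ kidneys, and Mfsd2a at -1.95 and Apom at -0.96 in AZIP kidneys.

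The largest difference among the 9 genes was that of Mfsd2a in AZIP kidneys. MFSD2A is a sodium-dependent carrier of lysophosphatidylcholine that brings omega-3 fatty acids into the brain, and in mouse liver it is induced by fasting. Mfsd2a lies on chromosome 4 (122946850 to 122961194, GRCm38.p6). It read 8.10, 7.91 and 7.10 in AZIP kidneys, against 10.24, 9.80 and 8.92 in FVB controls. All AZIP arrays lay below all FVB controls, and the difference of -1.95 ± 0.44 corresponds to a fold of 0.259 with a 95% interval of 0.133 to 0.502 (limma adjusted p = 0.0425). The call was not firm: leaving out AZIP 2, AZIP 3, FVB control 1, FVB control 2 or mixed control 2 or 3 took the adjusted p past the threshold (limma adjusted p up to 0.172), with values of -2.05, -1.65, -1.66, -1.88, -1.95 and -1.95. It was also lost with only the 2 groups in the model (limma adjusted p = 0.0609) and with a variance trend and robust variance (limma adjusted p = 0.0858).

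In the other line Mfsd2a read 8.68, 8.69 and 7.16 in PpargΔ/Δ kidneys and 9.58, 8.88 and 8.89 in mixed controls. Here too no mutant array reached a control array, but PpargΔ/Δ 3 lay far below the rest, and the difference of -0.94 ± 0.44 missed the threshold (limma adjusted p = 0.254). Without PpargΔ/Δ 3 it was -0.43. Mfsd2a varied more within groups than any other gene of the 9, with SDs of 0.88 in PpargΔ/Δ, 0.40 in mixed control, 0.53 in AZIP and 0.67 in FVB control, and it spanned 3.14 over the 12 arrays. The PpargΔ/Δ effect minus the AZIP effect was 1.01 ± 0.62 (limma adjusted p = 0.888).

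Apom, chosen here with the uptake genes because APOM carries lipid between lipoproteins and cells, encodes a lipocalin of HDL that binds sphingosine-1-phosphate. The gene lies on chromosome 17 (35128997 to 35131801, GRCm38.p6). It read 7.61, 7.22 and 7.07 in AZIP kidneys and 8.36, 8.32 and 8.11 in FVB controls. The AZIP arrays lay below every other array of the study, with a difference of -0.96 ± 0.13, a fold of 0.513 and a 95% interval of 0.424 to 0.622 (limma adjusted p = 0.00655). The call held with each of the 12 arrays left out (limma adjusted p up to 0.0352), with differences of -1.12 to -0.85.

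PpargΔ/Δ kidneys had 8.64, 8.76 and 8.50 for Apom, against 8.95, 8.91 and 8.73 in mixed controls. These groups overlapped by 1 array on each side, and the difference was -0.23 ± 0.13 (limma adjusted p = 0.332). The PpargΔ/Δ effect minus the AZIP effect was 0.73 ± 0.18 (unadjusted p = 0.00163, limma adjusted p = 0.571), so the larger AZIP value was not shown to differ after adjustment. Proximal tubule markers, from cells that make APOM, had a mean level of 12.21 to 12.33 in AZIP kidneys and 12.39 to 12.45 in FVB controls. All 12 of these markers were below 0 in AZIP minus FVB control, with a median of -0.132 and a lowest value of -0.39, and 0 of the 12 passed by limma. Their part in the Apom difference was not tested.

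Mfsd2a and Apom followed each other over the arrays. With each array taken relative to the mean of its strain background, they correlated at Pearson's r = 0.91 and Spearman's rho = 0.94 over 12 arrays. That value contains the shared difference between mutants and controls. Taken relative to the 4 group means instead, r was 0.75. Replicate 3 was the lowest for Apom in all 4 groups and for Mfsd2a in all but the mixed controls. The part of such a shared replicate order in r was not tested. The arrays share one platform and one normalization, so r describes these arrays and no more. All pairs among the genes described here were compared, and Mfsd2a and Apom are named for their high r. Relative to the strain means only Vldlr and Fabp3 had a higher r, at 0.92. Relative to the 4 group means Vldlr and Fabp3 (0.94) and Gpihbp1 and Fabp4 (0.81) were higher. Fabp3 there had r = -0.75 with Mfsd2a and -0.72 with Apom, so a special tie between Mfsd2a and Apom was not shown.

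**Figure D3:**
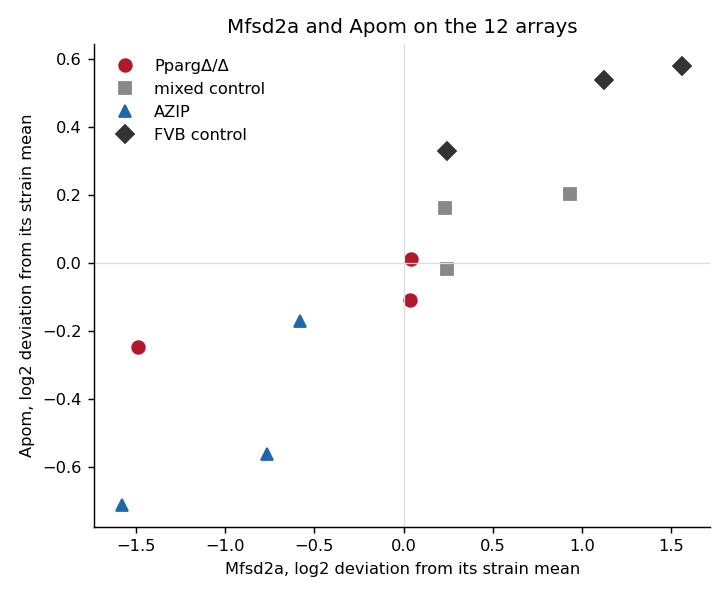
Mfsd2a (horizontal axis) against Apom (vertical axis) on the 12 arrays, each as the log2 deviation from the mean of the 6 arrays of the same strain background. AZIP arrays lie at the lower left and FVB controls at the upper right, with PpargΔ/Δ 3 at a low Mfsd2a value.

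The stretches before the starts of these genes are shown because they are the pair that fell together in AZIP kidneys. Both are the first 250 bases of the RefSeq window around the start, on GRCm38.p6 and the minus strand, with a match to the nuclear receptor core motif AGGTCA in capitals, which the Apom stretch does not hold. Mfsd2a is at chr4:122961189-122961438 and Apom at chr17:35131802-35132051. The Apom stretch ends just before the gene, while the start used for the Mfsd2a window lies inside the span given above, so that 6 of its 250 bases fall within the gene.
Mfsd2a: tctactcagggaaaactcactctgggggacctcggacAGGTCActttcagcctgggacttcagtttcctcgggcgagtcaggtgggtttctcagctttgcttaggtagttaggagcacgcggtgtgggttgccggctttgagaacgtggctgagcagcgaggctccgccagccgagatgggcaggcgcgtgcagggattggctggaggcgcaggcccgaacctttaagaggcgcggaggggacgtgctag
Apom: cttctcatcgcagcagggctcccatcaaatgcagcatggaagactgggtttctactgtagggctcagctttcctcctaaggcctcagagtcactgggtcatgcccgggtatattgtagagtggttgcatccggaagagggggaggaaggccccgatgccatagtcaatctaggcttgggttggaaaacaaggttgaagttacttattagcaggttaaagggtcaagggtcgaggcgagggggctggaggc

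The motif search covered both strands of the full RefSeq windows, which run to 50 bases past the start. RefSeq windows matched 5 of the 9 genes (Vldlr, Cd36, Fabp3, Mfsd2a and Apom) with 6 windows. The core motif AGGTCA occurred in 2 of the 6, those of Mfsd2a (first base at -213 from the start of its window) and Cd36, and in 16.3% of all 32851 windows. The Cd36 window, chr5:17835847-17836146 on the minus strand, lies inside the gene span of 17781690 to 17888959. Its start is therefore not the outer start of Cd36. The PPAR and RXR motif, a direct repeat of AGGTCA with 1 base between the copies, overlaps with the core motif and was in 0 of the 6 and 0.0396% of all windows. Other motifs without a match in the 6 windows were the HNF4 motif CAAAGTCCA (0.475% of all windows), the HNF1 motif GTTAAT and ATTAAC with 1 base between them (0.00913%), the forkhead motif TGTTTAC (3.65%), the CREB motif TGACGTCA (1.79%), the clock E-box CACGTG (7.15%) and the TATA motif TATAAA (13.6%). Only these exact letters were sought, so near matches were not counted. A match or its lack describes the letters of these windows only, and motifs this rare over all windows are seldom met in 6.

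Fabp4, the fatty acid binding protein of fat cells, capillary endothelium and macrophages, lies on chromosome 3 (10204342 to 10208616, GRCm38.p6). In PpargΔ/Δ kidneys it read 9.74, 10.00 and 10.04, against 10.27, 10.24 and 10.28 in mixed controls. The PpargΔ/Δ arrays lay below all controls, and the difference of -0.34 ± 0.092 narrowly missed the threshold (limma adjusted p = 0.0573). It passed with arrays shifted to equal medians (limma adjusted p = 0.0418), with dim genes left out (limma adjusted p = 0.0424), with a variance trend and robust variance (limma adjusted p = 0.0372) and without AZIP 1 (limma adjusted p = 0.0379). It missed the threshold in the other 11 fits with an array left out, with differences of -0.39 to -0.24 and a limma adjusted p up to 0.148.

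In AZIP kidneys Fabp4 lay on the other side of its controls. It read 10.82, 10.53 and 10.58 in AZIP kidneys and 10.27, 10.41 and 10.48 in FVB controls, without overlap, a difference of 0.26 ± 0.092 (limma adjusted p = 0.176). It was 0.17 without AZIP 1. The PpargΔ/Δ effect minus the AZIP effect was -0.59 ± 0.13, with an unadjusted p of 0.000709 and a limma adjusted p of 0.416. For this contrast 0.0201% of all genes were called (0.01% above 0 and 0.01% below 0), and 0 of the 9 genes by limma, with 4 of the 9 at an unadjusted p under 0.05. Of all 19938 genes at least 1150 had an unadjusted limma p under 0.05 in this contrast.

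Markers of other cells that express Fabp4 were read beside it. The fat-cell hormone Adipoq stayed between 4.28 and 4.61 on the 12 arrays, with differences of -0.13 in PpargΔ/Δ kidneys (limma adjusted p = 0.414) and -0.013 in AZIP kidneys (limma adjusted p = 0.966). The mean of 9 white fat markers was 7.02 to 7.10 in PpargΔ/Δ kidneys and 7.10 to 7.18 in mixed controls, and 7.17 to 7.27 in AZIP kidneys and 7.20 to 7.24 in FVB controls. Of these 9 the amine oxidase Aoc3 rose in both lines, by 0.38 in PpargΔ/Δ and 0.41 in AZIP kidneys, and the lipase Lipe fell in PpargΔ/Δ kidneys (-0.59 ± 0.086, limma adjusted p = 0.00368).

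Brown fat markers, like Fabp4, had a lower mean in PpargΔ/Δ kidneys. The mean of 7 of them was 6.15 to 6.28 in PpargΔ/Δ kidneys, below the mixed controls at 6.30 to 6.57, and 6.37 to 6.88 in AZIP kidneys, around the FVB controls at 6.42 to 6.60. Of the 7 markers 1 was above 0 and 6 below in PpargΔ/Δ minus mixed control, and 6 above and 1 below in AZIP minus FVB control. Ucp1, the uncoupling protein that defines brown fat, read 6.43, 7.39 and 5.44 in AZIP kidneys, against 5.63 to 6.06 in FVB controls. Its AZIP difference was 0.61 ± 0.35 (limma adjusted p = 0.433), and that of Cox8b was -0.24 (limma adjusted p = 0.742). By limma 0 of the 7 passed in either comparison. Macrophage markers, 9 in number, had a mean of 8.34 to 8.95 in PpargΔ/Δ kidneys and 8.20 to 8.43 in mixed controls, and 7.81 to 8.38 in AZIP kidneys and 7.87 to 7.97 in FVB controls. The part of these cells in the Fabp4 values was not tested.

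Cd36, the scavenger receptor that speeds fatty acid entry, lies on chromosome 5 (17781690 to 17888959, GRCm38.p6). It read 9.24, 9.09 and 9.23 in PpargΔ/Δ kidneys and 9.65, 9.24 and 9.39 in mixed controls. The highest PpargΔ/Δ array touched the lowest control, and the difference was -0.24 ± 0.17 (limma adjusted p = 0.47), or -0.13 without mixed control 1. AZIP kidneys read 10.10, 9.71 and 9.59 and FVB controls 10.26, 9.88 and 9.57, overlapping throughout (difference -0.10 ± 0.17, limma adjusted p = 0.835). The sign of the AZIP value was not stable, at 0.0014 without AZIP 3 and 0.074 without FVB control 1.

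The muscle and heart type binding protein Fabp3 and the receptor Vldlr did not pass the threshold in either line. Fabp3 (chromosome 4, 130308738 to 130315463, GRCm38.p6) read 11.03 to 11.22 in PpargΔ/Δ kidneys and 10.95 to 11.05 in mixed controls (difference 0.12 ± 0.078, limma adjusted p = 0.418). It read 10.96 to 11.26 in AZIP kidneys and 10.90 to 10.97 in FVB controls (difference 0.14 ± 0.078, limma adjusted p = 0.423), or 0.044 without AZIP 3. A second probe set given the same symbol, not used above, correlated with it at r = 0.99 over the 12 arrays, and what it shares in probes is not given here.

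Vldlr, the receptor that takes up triglyceride-rich particles and helps bring them to the lipase, lies on chromosome 19 (27216480 to 27254231, GRCm38.p6). It read 10.63 to 10.78 in PpargΔ/Δ kidneys and 10.62 to 10.73 in mixed controls (difference 0.043 ± 0.073, 95% interval -0.12 to 0.20, limma adjusted p = 0.801). In AZIP kidneys it read 10.52 to 10.82 and in FVB controls 10.53 to 10.58 (difference 0.088 ± 0.073, 95% interval -0.071 to 0.25, limma adjusted p = 0.618). Without AZIP 3, the highest array for both genes, the AZIP difference of Vldlr was -0.0019. Fabp3 and Vldlr correlated at r = 0.92 and Spearman's rho = 0.78 relative to the strain means and at r = 0.94 relative to the 4 group means, over 12 arrays. From replicate 1 to 3 Fabp3 rose in all 4 groups and Vldlr in all but the FVB controls. The part of this shared order in r was not tested. Fabp3 and Vldlr had the highest r of all pairs among the genes described here, relative to either kind of mean.

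Groups without any overlap between their 3 and 3 arrays were found for 5 of the 9 genes in each mutant comparison, where 26.1% of all genes did not overlap for PpargΔ/Δ (12.9% higher and 13.2% lower) and 22.5% for AZIP (11% higher and 11.5% lower). In PpargΔ/Δ kidneys these were Lpl above and Angptl4, Cd36, Fabp4 and Mfsd2a below the mixed controls. For Cd36 the nearest arrays both read 9.24, so that gap did not show at 2 decimals. In AZIP kidneys they were Gpihbp1 and Fabp4 above and Lpl, Mfsd2a and Apom below the FVB controls, and for Lpl the gap between the nearest arrays did not show at 2 decimals.

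The controls of the 2 backgrounds differed for 1 of the 9 genes, Apom, which was lower in FVB controls than in mixed controls (-0.60 ± 0.13, limma adjusted p = 0.0134). This comparison uses the same control arrays as the mutant comparisons, 7.22% of all genes were called in it (3.5% higher and 3.72% lower), and strain cannot be told apart from anything else that set the 2 colonies apart. Apom lost the threshold without mixed control 1 or FVB control 3 (limma adjusted p up to 0.0584), with values of -0.56 and -0.53. Cd36 was at 0.47 ± 0.17 (limma adjusted p = 0.13), with FVB controls from 9.57 to 10.26 and mixed controls from 9.24 to 9.65. Arrays did not overlap for 2 of the 9 genes, Apom and Vldlr, both lower in FVB controls, where 28.5% of all genes did not overlap (15.8% higher and 12.7% lower). The 7 genes other than Apom and Cd36 lay between -0.13 and 0.54, and the 0.54 of Mfsd2a had an SE of 0.44.

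The order of the 4 group means differed from gene to gene. Fabp4 ran from AZIP through FVB control and mixed control down to PpargΔ/Δ, with gaps between AZIP and FVB control and between mixed control and PpargΔ/Δ. Apom ran from mixed control through PpargΔ/Δ and FVB control to AZIP, with gaps at the last 2 steps. For Mfsd2a both control groups were above both mutants, and the only gap between neighbours lay between mixed control and PpargΔ/Δ. For Gpihbp1, Vldlr and Fabp3 every pair of neighbouring groups overlapped.

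The wider pathway was read through 2 lists, of which 45 of 51 genes were measured. Of 29 genes of lipoprotein handling, 1 rose and 3 fell in PpargΔ/Δ kidneys, and 1 rose and 1 fell in AZIP kidneys. Over all genes 2.67% were called higher and 2.62% lower in PpargΔ/Δ kidneys, and 1.3% higher and 1.13% lower in AZIP kidneys. The median difference of the 29 was -0.032 in PpargΔ/Δ and 0.029 in AZIP kidneys, beside -0.009 and 0.003 over all genes. Of 16 genes of fatty acid uptake and binding, 2 rose and 1 fell in PpargΔ/Δ kidneys and 0 passed in AZIP kidneys by limma, where 3 had an unadjusted p under 0.05. So did at least 3083 of all 19938 genes in AZIP kidneys. The medians of the 16 were -0.072 in PpargΔ/Δ and -0.017 in AZIP kidneys. Between the controls, 5 of the 45 genes were higher and 4 lower in FVB than in mixed controls, beside 3.5% and 3.72% of all genes. Among the 5 were Lipg (0.79 ± 0.12, limma adjusted p = 0.00218) and Mttp (0.69 ± 0.10, limma adjusted p = 0.00141). Among the 4 were Apob (-0.97 ± 0.17, limma adjusted p = 0.00558) and Slc27a1 (-0.42 ± 0.086, limma adjusted p = 0.0116).

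Among lipases and their regulators, Lipg, the endothelial lipase that acts mainly on HDL phospholipid, rose in PpargΔ/Δ kidneys. It read 7.32, 7.67 and 7.96 there, against 6.92, 7.02 and 6.88 in mixed controls (difference 0.71 ± 0.12, limma adjusted p = 0.0083). The call held with each of the 12 arrays left out. In AZIP kidneys Lipg read 8.15, 8.08 and 8.27, against 7.69, 7.78 and 7.72 in FVB controls, and the difference of 0.44 ± 0.12 missed the threshold (limma adjusted p = 0.0839). Lmf1, which the lipase needs to fold, was at -0.090 in PpargΔ/Δ kidneys (limma adjusted p = 0.5) and -0.090 in AZIP kidneys (limma adjusted p = 0.572).

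Among genes of particle assembly, Mttp, which loads lipid onto apolipoprotein B, read 8.14, 7.76 and 8.00 in AZIP kidneys, against 8.50, 8.68 and 8.61 in FVB controls, and fell (-0.63 ± 0.10, limma adjusted p = 0.0115). The adjusted p was 0.0531 without FVB control 2. In PpargΔ/Δ kidneys Mttp was at -0.38 ± 0.10 and just missed the threshold (limma adjusted p = 0.0508). Apoc3, an inhibitor of lipoprotein lipase, fell in PpargΔ/Δ kidneys (-0.49 ± 0.12, limma adjusted p = 0.036), as did Apob, the structural protein of triglyceride-rich particles (-0.66 ± 0.17, limma adjusted p = 0.0491), and Apoa4 (-0.33 ± 0.084, limma adjusted p = 0.0457). Other apolipoproteins of the list did not pass in either line. In PpargΔ/Δ kidneys Apoc1 was at 0.078, Apoa5 at -0.086, Apoe at -0.11, Apoa1 at -0.053 and Apoh at 0.53. In AZIP kidneys they were at 0.22, 0.0038, 0.029, 0.072 and 0.94, with an SE of 0.25 for Apoh in both (limma adjusted p = 0.261 in PpargΔ/Δ and 0.0776 in AZIP kidneys).

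These 3 falls were less firm than that of Mttp. Apoc3 lost the threshold without PpargΔ/Δ 2 or 3, mixed control 1 or 3 or FVB control 1 (limma adjusted p up to 0.13). Apob kept it in 2 of the 12 fits with an array left out (limma adjusted p up to 0.166) and Apoa4 in 3 of the 12 (limma adjusted p up to 0.147). With only the 2 groups compared the limma adjusted p was 0.0847 for Apoc3, 0.122 for Apob and 0.0514 for Apoa4, and Apob also missed the threshold with a variance trend and robust variance (0.0501) and with array weights (0.0527). Hspg2, the heparan sulfate proteoglycan perlecan, rose in AZIP kidneys (0.25 ± 0.057, limma adjusted p = 0.0411) and kept the threshold in 2 of 12 such fits (limma adjusted p up to 0.133). It lost it with equal medians (limma adjusted p = 0.0528) and with only the 2 groups compared (limma adjusted p = 0.0659). The endocytic receptors megalin, Lrp2, and cubilin, Cubn, of the proximal tubule were at -0.14 and -0.18 in PpargΔ/Δ kidneys (limma adjusted p = 0.115 and 0.0649), and at -0.14 and -0.12 in AZIP kidneys (limma adjusted p = 0.138 and 0.243).

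Among fatty acid carriers, Slc27a1, the transport protein FATP1, read 10.05, 9.81 and 9.85 in PpargΔ/Δ kidneys and 10.42, 10.25 and 10.21 in mixed controls, a fall of -0.39 ± 0.086 (limma adjusted p = 0.0252). That call was lost when PpargΔ/Δ 2, PpargΔ/Δ 3, mixed control 1 or mixed control 2 was left out, with a limma adjusted p up to 0.102, and with only the 2 groups compared (limma adjusted p = 0.0575). Cavin1, a coat protein of caveolae, rose in PpargΔ/Δ kidneys (0.24 ± 0.063, limma adjusted p = 0.0491), a call kept in 2 of 12 fits with an array left out (limma adjusted p up to 0.16) and lost with arrays shifted to equal medians (0.22, limma adjusted p = 0.0636), with quantile normalization again (limma adjusted p = 0.0525) and with only the 2 groups compared (limma adjusted p = 0.115). Slc27a2, the FATP2 transporter, was at -0.10 in PpargΔ/Δ kidneys (limma adjusted p = 0.235) and -0.054 in AZIP kidneys (limma adjusted p = 0.622).

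Fabp7, the brain type fatty acid binding protein, rose in PpargΔ/Δ kidneys, at 10.41, 9.80 and 9.84 against 9.20, 8.86 and 9.30 in mixed controls (0.90 ± 0.20, limma adjusted p = 0.0276). In AZIP kidneys it lay on the other side of its controls, at 9.41, 9.20 and 8.70 against 9.82, 9.47 and 9.50 in FVB controls (-0.49 ± 0.20, limma adjusted p = 0.244). Leaving out PpargΔ/Δ 1, PpargΔ/Δ 3, mixed control 1 or mixed control 2 ended the call, with a limma adjusted p up to 0.0991, and so did a variance trend with robust variance (limma adjusted p = 0.0513). Fabp1, the liver type protein, was at -0.43 in PpargΔ/Δ kidneys (limma adjusted p = 0.104) and Fabp5 at -0.11 (limma adjusted p = 0.744).

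**Figure D4:**
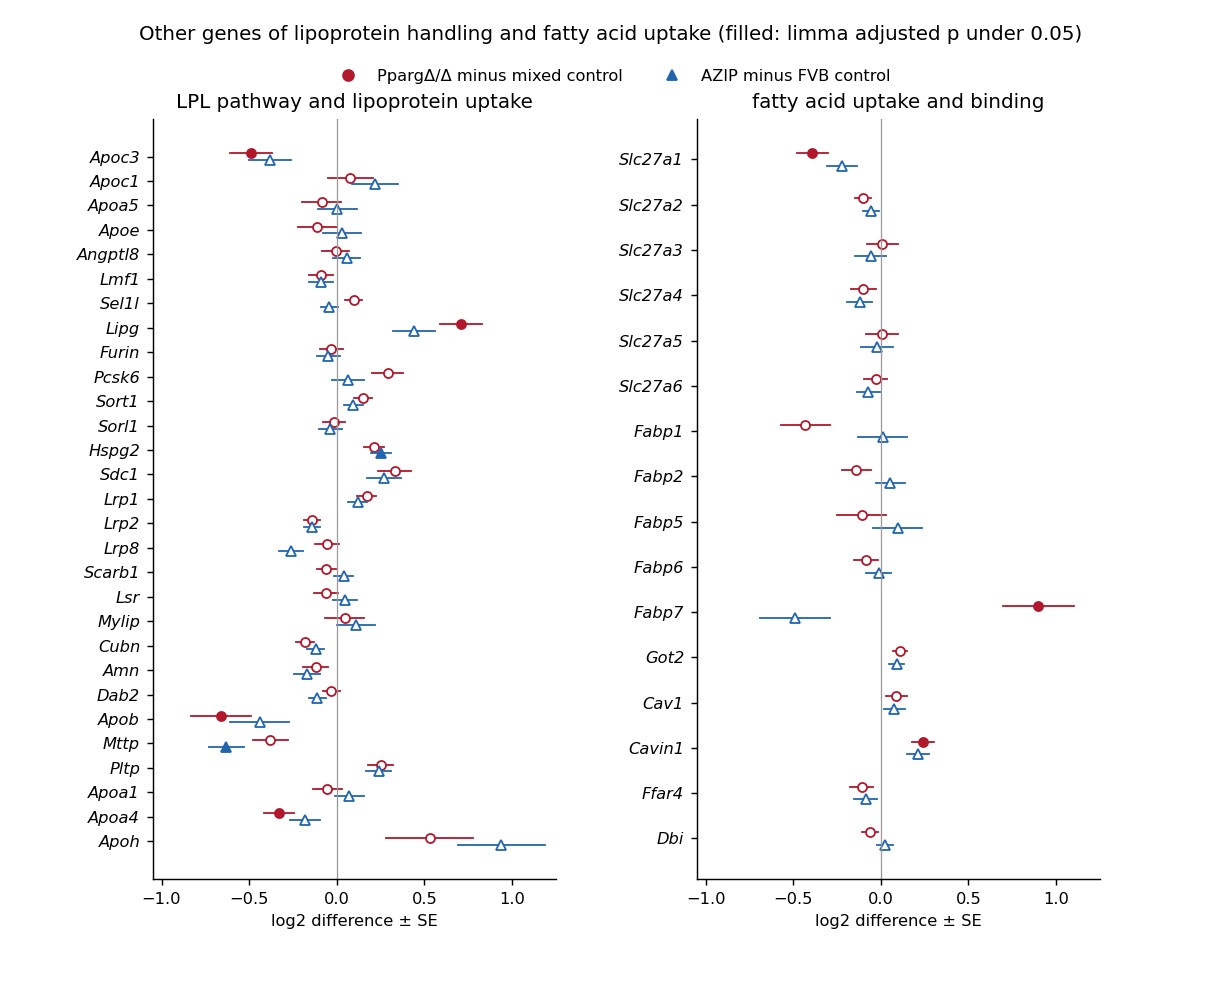
Log2 difference ± SE (horizontal axis) of 29 genes of lipoprotein handling and 16 genes of fatty acid uptake, circles for PpargΔ/Δ minus mixed control and triangles for AZIP minus FVB control, filled where the limma adjusted p was under 0.05. Lipg at 0.71 and Fabp7 at 0.90 are the highest filled circles, and Mttp at -0.63 is the lowest filled triangle.

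Genes with the closest pattern over the arrays were sought for each of the 9, relative to the strain means and over 12 arrays. For Angptl4 they were Egf (r = 0.962), the deiodinase gene Dio1 (r = 0.961) and Cpt2, an enzyme of mitochondrial fatty acid oxidation (r = 0.955). All of these fell in PpargΔ/Δ kidneys, Dio1 by 1.27, Cpt2 by 0.44 and Egf by 0.26, where 2.62% of all genes were called lower. The values used for the choice hold the mutant difference, so these falls follow in part from it and add no support. Relative to the 4 group means r was 0.89 for Egf, 0.86 for Dio1 and 0.88 for Cpt2. For Mfsd2a the closest were Daglb (r = 0.984), Hykk (r = 0.968) and Trpv4 (r = 0.963). Daglb, chosen in the same way, fell in AZIP kidneys (-0.35, limma adjusted p = 0.0453).

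For Apom the closest were Sfxn5 (r = 0.961), Bbs10 (r = 0.956) and Cbs, cystathionine beta-synthase (r = 0.955). All of these fell in AZIP kidneys, Cbs by 0.69, Bbs10 by 0.58 and Sfxn5 by 0.32. The closest genes of Fabp4 were Myo3a, Zfp711 and Ism2 (r = 0.919, 0.903 and 0.901), and 0 of these 3 passed in either line by limma. Their levels were low. By group mean Myo3a lay at percentile 9.1 to 10.2 of all genes, Zfp711 at 21.5 to 24.5 and Ism2 at 27.7 to 30.1. The closest genes of Lpl were Hps3, Uchl3 and Sgsh (r = 0.941, 0.917 and 0.908), which again gave 0 calls by limma in the mutant comparisons. For Gpihbp1 they were Bnip2, Rpl36a and Acot10 (r = 0.943, 0.939 and 0.927), and for Cd36 they were Nt5e, Rnf40 and Zfp738 (r = 0.928, 0.920 and 0.886). For Vldlr they were Pcp4, Fabp3 and Thap12 (r = 0.945, 0.921 and 0.920), and for Fabp3 they were Scg5, Rpp25 and Pcp4 (r = 0.957, 0.945 and 0.939). These values include the difference between mutants and controls. They were the highest among all genes after symbols of the Gm, Rik, Olfr, Vmn and LOC kinds were left out. They therefore describe likeness on these arrays only.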

How the data were processed

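Whole-kidney RNA was measured on 12 Affymetrix mouse arrays, 3 pools of 3 mice in each of 4 groups. The log2 values deposited by the authors came from RMA run in Affymetrix Expression Console, as the submitters' processing notes give it. Software versions and the annotation build are not stated in those notes. No value was rescaled. Arrays hold no read counts, so the number of arrays limits the precision. Of 35556 probe sets 21789 had 1 gene symbol, 1621 several and 12146 none. Symbols were updated by Entrez number from a RefSeq table (GRCm38.p6) for 21698, and the brightest probe set per gene left 19938 genes.

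A model with 4 group means was fitted over the 12 arrays in limma 3.58.1 (R 4.3.3). The residual degrees of freedom were 8, and the prior added 3.71. Adjustment followed Benjamini and Hochberg and covered all genes, with a threshold of 0.05. The fit was tested on simulated data. The 9 genes, the lists and the naming rule were chosen with earlier results of these data known. The rule named all 9 genes, pathway genes past the threshold, the 3 genes of closest pattern to each, and markers beside a result. Other pathway genes given with an adjusted p above the threshold were picked after their values were seen. All 9 genes lay above percentile 25 of mean level.

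Alternatives were a second quantile normalization, arrays shifted to equal medians, dim genes (under percentile 25) left out, a variance trend with robust variance, probe sets averaged within a gene, a fit on only the 2 groups compared, limma's array weights, a block for the replicate number, and each array left out. The labels do not say whether the pools of a group came from separate litters or days, so p-values measure the spread between these pools.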

Additional observations from a re-analysis of the deposited data

Results flagged for a closer look

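Among 85 genes looked at (the 9 genes, the pathway genes, the genes of closest pattern, the named markers and Pparg), 5 had every array of one mutant line above its controls and every array of the other line below. Over all 19938 genes 74 did so, or 0.371%. None of these differences passed limma's test after adjustment over all genes, where 4 genes in all did. For Fabp4 the PpargΔ/Δ effect minus the AZIP effect was -0.59 ± 0.13 (unadjusted p = 0.000709, limma adjusted p = 0.416), from -0.34 in PpargΔ/Δ and 0.26 in AZIP kidneys. For Fabp7 it was 1.39 ± 0.29 (unadjusted p = 0.000412, limma adjusted p = 0.332), from 0.90 in PpargΔ/Δ and -0.49 in AZIP kidneys. For Lpl it was 0.25 ± 0.10 (unadjusted p = 0.0334, limma adjusted p = 0.837), from 0.084 in PpargΔ/Δ and -0.16 in AZIP kidneys. Without FVB control 1 the AZIP value of Lpl was -0.064. Myo3a and Zfp711 were dim and were named for a pattern close to that of Fabp4, so they do not add to it. Their values were -0.23 ± 0.073 (limma adjusted p = 0.746) and -0.30 ± 0.086 (limma adjusted p = 0.634).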

How the results depend on the processing

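The number of the 9 genes past the threshold in PpargΔ/Δ minus mixed control was 1, and 2 with equal medians, with dim genes left out and with a variance trend and robust variance, where Fabp4 was added. With the replicate block it was also 2, where Mfsd2a was added (-0.94, limma adjusted p = 0.035). With an array left out it ran from 0 (mixed control 1) to 2 (AZIP 1). In AZIP minus FVB control it was 2, and 1 with only the 2 groups compared and with a variance trend and robust variance, and 1 to 2 with an array left out. Between the control groups it was 1, 2 with the replicate block, where Cd36 was added (0.47, limma adjusted p = 0.0302), and 0 to 1 with an array left out. For the difference of the effects it was 0 throughout. Over all genes, deviations of same-numbered arrays correlated at 0.18, 0.18 and 0.01 in the mixed background and at -0.04, -0.10 and -0.01 in the FVB background. Arrays of unlike number correlated at -0.26 to 0.15 and at -0.11 to 0.15. With so few arrays these values cannot decide whether same-numbered pools shared a litter or day. With the replicate block 1102 genes were called in PpargΔ/Δ and 694 in AZIP kidneys, against 1055 and 485 without it. Not every array correlated best with its own number. Some of the 9 genes still shared an order of replicates. In all 4 groups Apom was lowest on replicate 3, Cd36 was highest on replicate 1 and Fabp3 rose from replicate 1 to 3. Lpl and Gpihbp1 shared no such order. The block lowered the SE of Mfsd2a in PpargΔ/Δ minus mixed control from 0.44 to 0.21. What the replicate numbers stand for was not tested.

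Pathway genes past the threshold in PpargΔ/Δ kidneys numbered 7, but 11 with dim genes left out, 11 with a variance trend and robust variance and 3 with only the 2 groups compared, and 1 to 8 with an array left out. In AZIP kidneys they numbered 2, but 4 with array weights, and 0 to 3 with an array left out. Over all genes the count in PpargΔ/Δ kidneys was 1055, 607 with only the 2 groups compared and 330 (without mixed control 1) to 1220 (without AZIP 3). In AZIP kidneys it was 485, 162 with only the 2 groups compared, 741 with a variance trend and robust variance and 62 (without FVB control 1) to 606 (without PpargΔ/Δ 1). Counts moved both ways with an array left out, and the cause was not tested. Of the single genes 798 values kept their direction and side of the threshold, 76 lost and 6 gained it and 11 changed sign. With equal medians the split of calls was 436 higher and 694 lower in PpargΔ/Δ kidneys, against 532 and 523 as deposited, and 203 and 326 in AZIP kidneys, against 260 and 225.

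Signs turned only for values near 0. In AZIP minus FVB control, Vldlr was -0.0019 without AZIP 3 (range over arrays left out -0.0019 to 0.15), and Cd36 was 0.0014 without AZIP 3 and 0.074 without FVB control 1 (range -0.27 to 0.074). For the difference of the effects, Vldlr was 0.045 without AZIP 3, and Cd36 was 0.012 without AZIP 1 and 0.028 without FVB control 3 (ranges -0.10 to 0.045 and -0.32 to 0.028). There Fabp3 was 0.021 with array weights, 0.039 without PpargΔ/Δ 1, 0.0066 without mixed control 3, 0.081 without AZIP 3 and 0.0027 without FVB control 1 (range -0.073 to 0.081). Probe sets with a low signal over background are not marked in these values, which limits what can be said of dim genes such as Adipoq.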
